A study of Homo sapiens with 12 samples.

Results

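The centromere and kinetochore genes described here are 35 genes, chosen by symbol from the 58174 genes of the deposited table. They encode the centromeric histone CENPA and its loading factor HJURP, the other proteins named CENP, the KMN network (the NDC80, MIS12 and KNL1 complexes), and the RZZ and SKA complexes. All 35 were found once each and passed the filter on low values. Poly(A) RNA was sequenced from HCT116, a line grown from a human colorectal carcinoma, after exposure to dolastatin 15. This compound is a small peptide from the sea that attaches to tubulin and stops microtubules from forming. There were 6 groups of 2 libraries: 20 nM, 100 nM and solvent at 16 h, and 20 nM, 100 nM and solvent at 24 h, all at 0.25% DMSO. The table's own library numbers are used here. Libraries 1 and 2 (20 nM), 3 and 4 (100 nM) and 5 and 6 (solvent) belong to 16 h, and libraries 7 and 8 (20 nM), 9 and 10 (100 nM) and 11 and 12 (solvent) to 24 h. The labels speak of duplicates and do not name separate cultures. Each p-value therefore reflects just the scatter of these libraries, which may be technical, in a single cell line.

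The kinetochore is the protein structure on each chromosome's centromere that holds it to spindle microtubules. CENPA, a variant of histone H3, marks the centromere, and HJURP deposits it there after mitosis. A network of CENP proteins stays on this chromatin through the cell cycle and recruits the KMN network in mitosis, whose NDC80 complex grips the microtubule. The RZZ and SKA complexes and the motor CENPE join at the outer face, where unattached kinetochores hold cells in mitosis through the spindle checkpoint. Many of these genes are transcribed chiefly in G2 and mitosis, and drugs that block microtubule assembly leave kinetochores unattached. In bulk RNA, a change in the share of cells at a stage of the cell cycle and a change in mRNA per cell cannot be told apart.

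The values are FPKM, a count of fragments corrected for transcript length and for each library's mapped total, so levels of different genes can be set side by side. Sums of FPKM ran from 911720.3 to 1049886 per library, and 20368 to 21519 genes had a value above 0. The epithelial markers EPCAM, KRT8, KRT18 and KRT19 lay at 204 to 486 FPKM in every library and CDH1 at 2.91 to 3.92 FPKM. Of 9 markers of blood, endothelial and stromal cells, 8 stayed under 1 FPKM in every library, and COL1A1 lay at 1.44 to 4.34 FPKM. Some of these markers changed against solvent at a limma adjusted p under 0.05. KRT18 was lower in all 4 comparisons (log2 changes -0.14 and -0.16 at 16 h and -0.17 and -0.23 at 24 h with 20 nM and 100 nM). KRT19 was higher with 100 nM at 16 h (0.40) and with 20 nM (0.31) and 100 nM (0.50) at 24 h, and EPCAM with 20 nM (0.37) and 100 nM (0.17) at 24 h. COL1A1 was lower with 100 nM at 16 h (-0.66) and at 24 h (-0.50). Calls of KRT18, EPCAM and COL1A1 depended in part on single libraries, and those of KRT18, KRT19 and EPCAM in part on the scaling. The share of the FPKM sum held by mitochondrially encoded genes was 23.8% and 25.8% with 20 nM and 18.8% and 20.7% with 100 nM at 24 h, against 17.9% and 18.6% in solvent, and 21.6% to 24.5% in the libraries of 16 h. The part of these values in the results was not tested.

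Levels spanned a wide range within the same structure. Over 12 libraries, ZWINT, which binds KNL1, had the highest mean (137 FPKM, range 116 to 164) and CENPC, which links centromeric chromatin to the KMN network, the lowest (7.11 FPKM, range 3.64 to 10.3). Means were at least 50 FPKM for 7 genes, from 10 to 50 FPKM for 26 and under 10 FPKM for 2, CENPC and CENPQ. The highest library was less than 1.5 times the lowest for 18 genes and more than 2 times the lowest for 2, CENPC and CENPI. SKA2, a subunit of the SKA complex, lay at 113 to 126 FPKM in all 12 libraries.

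**Figure D1:**
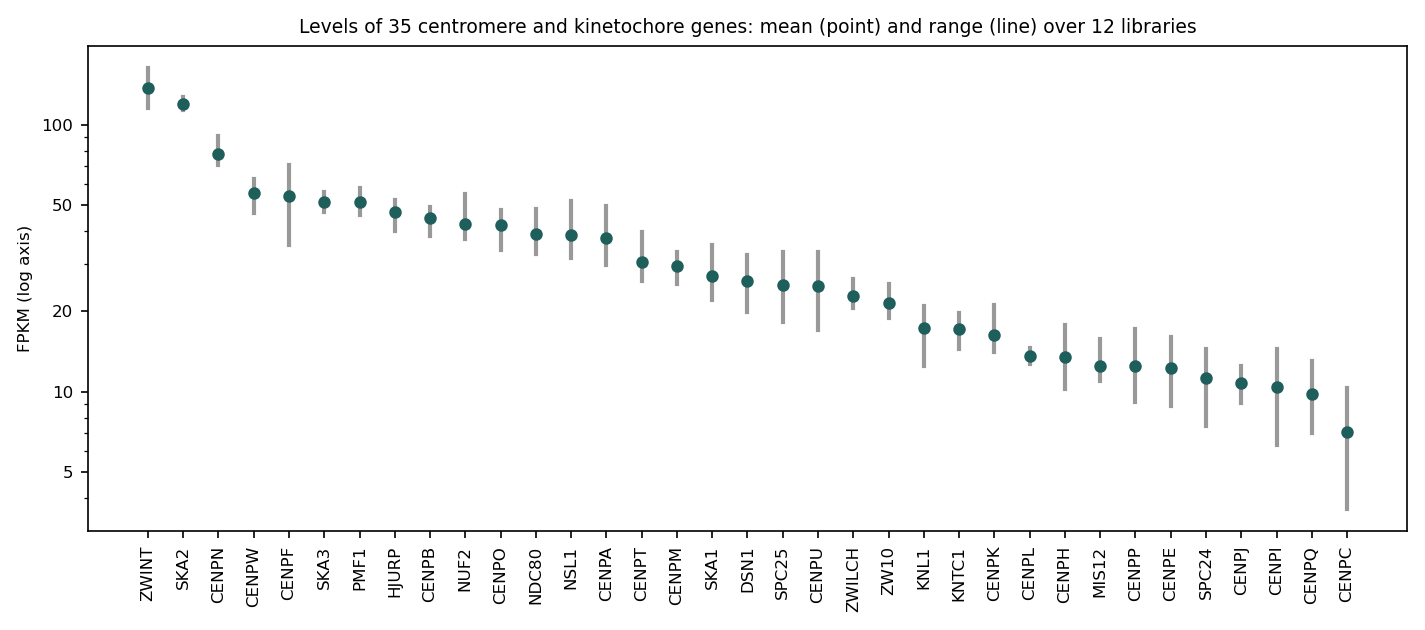
Level of each of the 35 genes (x axis, ordered by mean) in FPKM on a log axis. Points are means and lines the range over 12 libraries. ZWINT and SKA2 stand highest and CENPC lowest, with the widest range for CENPC.

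Each dose was set against the solvent of its own time, to ask how these genes differed after exposure to dolastatin 15. A gene was called, or said to have risen or fallen, at a Benjamini-Hochberg adjusted p under 0.05 over all 13458 tested genes (limma on log2 of FPKM plus 1). With 20 nM for 16 h, 3 of the 35 were higher and 9 lower than in solvent, and 23 missed the threshold. Of all tested genes, 17.7% were called, 6.78% higher and 11% lower. With 100 nM for 16 h, 6 were higher, 7 lower and 22 missed it. The background over all tested genes was 23.8% called, 9.16% higher and 14.7% lower. With 20 nM for 24 h, 9 were higher, 9 lower and 17 missed it. Of all tested genes, 28.8% were called, 14.7% higher and 14.1% lower. With 100 nM for 24 h, 3 were higher, 11 lower and 21 missed it. The background over all tested genes was 33.8% called, 15.4% higher and 18.4% lower. The share of the 35 called was 34.3%, 37.1%, 51.4% and 40.0% in that order. Every library was at or above 5 FPKM for 34 of the 35, while the background reaches lower. A minimum of 5 FPKM kept 9950 genes. Of these, 912 were higher and 1363 lower, 1178 and 1724, 1891 and 1659, and 1958 and 2097 in turn. The members then gave 3 and 10, 6 and 7, 11 and 9, and 3 and 11. At 100 nM and 24 h their share then lay near that of all genes kept. The median log2 change of the 35 was -0.062, -0.12, 0.020 and -0.10 in turn, beside -0.024, -0.028, 0.0018 and -0.024 for all tested genes. The calls went both ways within the structure.

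Across the 4 comparisons, 27 of the 35 genes (77.1%) were called at least once, beside 51.4% of all tested genes. CENPI, SPC25 and CENPE were called in all 4 (3 of 35, 8.57%, beside 6.13% of all tested genes). CENPA, HJURP, CENPC, CENPU, NDC80, DSN1 and ZWINT were called in 3 (7 of 35, 20%, beside 8.31%). The comparisons of a time point share their solvent libraries, so these calls are not independent. CENPB, CENPK, CENPL, SPC24, MIS12, ZWILCH, SKA2 and SKA3 were called in none. CENPA, HJURP, NDC80 and CENPE rose at 16 h and fell at 24 h at either dose or both. CENPU and DSN1 fell at 16 h and rose at 24 h with 20 nM, a rise that did not pass for either with rescaling to a common sum. Over all tested genes, 1.22% were called higher at 16 h and lower at 24 h in this way, and 1.69% lower at 16 h and higher at 24 h. Of these 6 members, CENPA and CENPE alone kept calls in both directions under all 21 alternative settings.

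**Figure D2:**
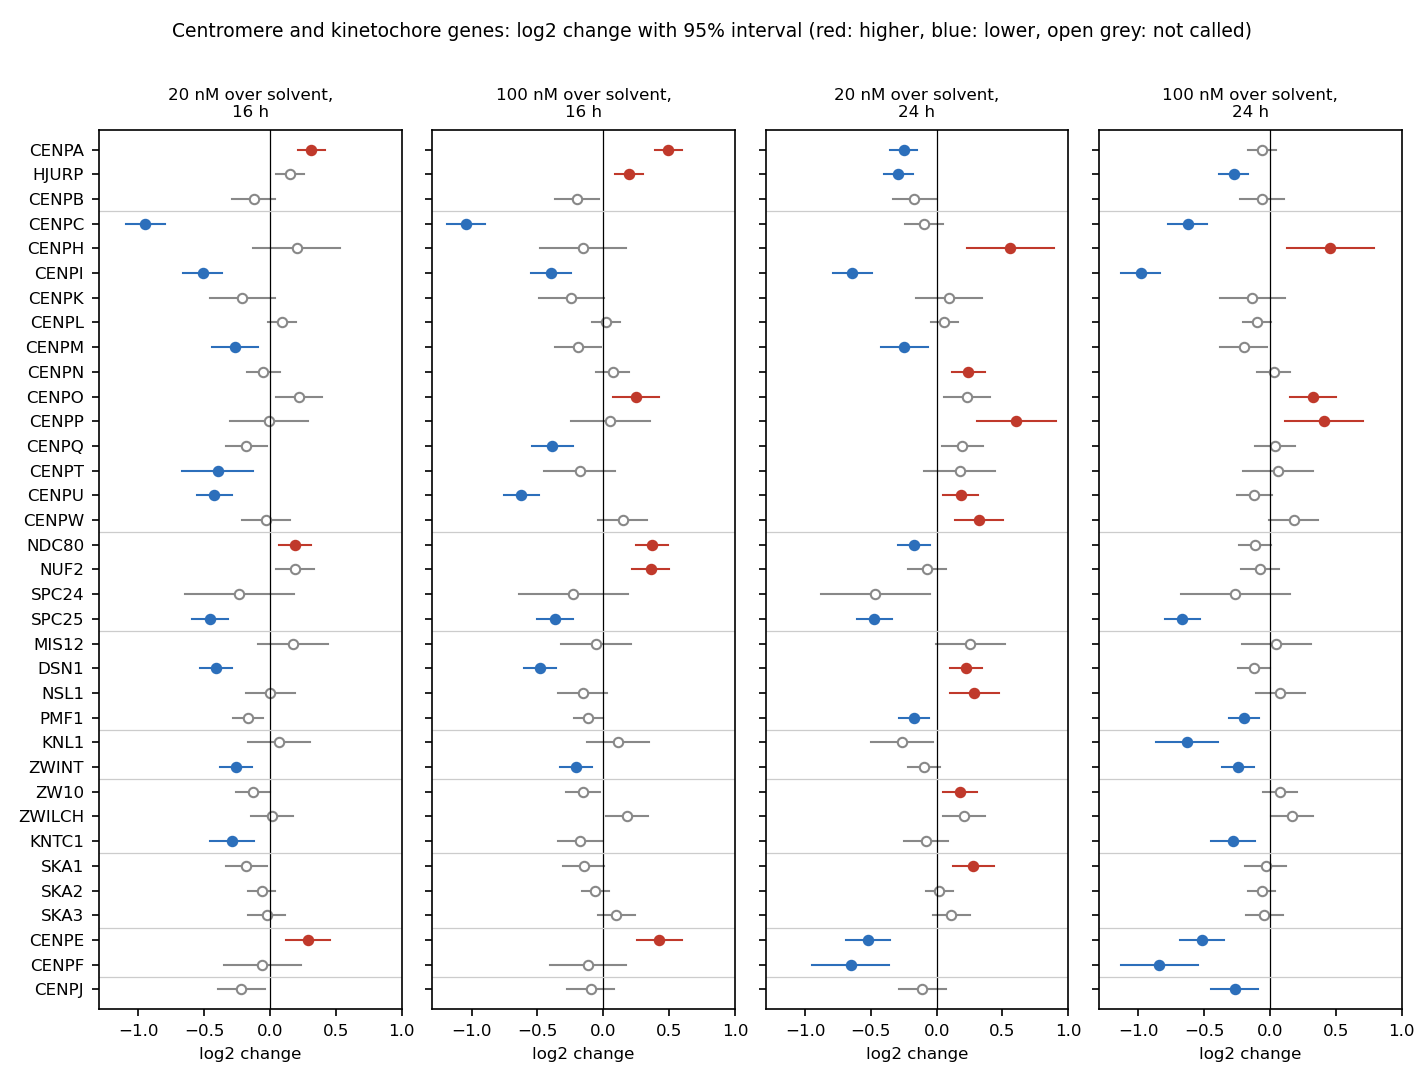
Log2 change against solvent (x axis) of the 35 genes (rows, grouped by complex) at each dose and time, with 95% intervals. Filled red points rose, filled blue points fell and open grey points did not pass. CENPC at 16 h and CENPI at 100 nM and 24 h lie farthest to the left.

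Scaling bears on the split at 24 h. Rescaling each library to a common sum moved the median of all genes at 24 h to -0.16 with 20 nM and -0.11 with 100 nM on the log2 scale. The members' split was then 1 higher and 18 lower with 20 nM and 0 higher and 18 lower with 100 nM. Of the 13458 tested genes, 573 were then higher and 4663 lower with 20 nM, and 1146 and 3728 with 100 nM. Most calls over all genes thus went down as well under this scaling. Median-of-ratios scaling, which sets the typical gene to no change, gave 10 and 9 with 20 nM and 4 and 11 with 100 nM. All tested genes gave 2013 and 1950 with 20 nM and 2471 and 2174 with 100 nM. Rescaling over nuclear genes, chosen after seeing the data, gave 5 and 11 with 20 nM and 1 and 17 with 100 nM. Counts over all tested genes were 1332 and 2684 with 20 nM and 1439 and 3335 with 100 nM. At 16 h the split was 4 and 8, 5 and 7, and 2 and 10 with 20 nM, and 4 and 8, 7 and 7, and 5 and 8 with 100 nM, under those 3 scalings in the same order. All tested genes then gave 881 and 1415, 1241 and 1215, and 961 and 1485 with 20 nM. With 100 nM they gave 915 and 2381, 1642 and 1653, and 1195 and 2087. All 3 scalings kept 9 of 12 calls at 20 nM and 16 h, 11 of 13 at 100 nM and 16 h, 10 of 18 at 20 nM and 24 h and 11 of 14 at 100 nM and 24 h. Directions below are those of the deposited FPKM.

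Promoter windows are shown for the 6 genes that were called in both directions in the deposited FPKM, higher at a time point and lower at the other. Under all 21 alternatives, calls in both directions held for CENPA and CENPE alone. Each window holds 250 bases before and 50 bases after the RefSeq start site on GRCh38.p14, 5′ to 3′ on the gene's strand. Capitals mark matches on either strand to TTTGAA, the cell cycle homology region bound by MuvB complexes, its variant TTTAAA, the CCAAT box, and TTTCCCGC or TTTGGCGC, forms of the E2F site.
CENPA (chr2:26785806-26786105, plus strand): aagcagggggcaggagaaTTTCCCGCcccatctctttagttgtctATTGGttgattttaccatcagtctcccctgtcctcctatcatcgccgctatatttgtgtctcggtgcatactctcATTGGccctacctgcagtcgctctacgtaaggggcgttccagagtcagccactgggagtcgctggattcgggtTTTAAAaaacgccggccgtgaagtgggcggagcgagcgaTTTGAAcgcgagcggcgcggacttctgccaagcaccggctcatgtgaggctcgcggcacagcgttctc
HJURP (chr2:233854486-233854785, minus strand): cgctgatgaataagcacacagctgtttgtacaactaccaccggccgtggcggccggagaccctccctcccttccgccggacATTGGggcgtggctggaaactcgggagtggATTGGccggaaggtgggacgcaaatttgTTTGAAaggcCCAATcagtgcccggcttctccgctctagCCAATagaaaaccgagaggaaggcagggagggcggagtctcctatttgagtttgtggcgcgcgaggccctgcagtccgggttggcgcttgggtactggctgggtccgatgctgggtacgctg
NDC80 (chr18:2571307-2571606, plus strand): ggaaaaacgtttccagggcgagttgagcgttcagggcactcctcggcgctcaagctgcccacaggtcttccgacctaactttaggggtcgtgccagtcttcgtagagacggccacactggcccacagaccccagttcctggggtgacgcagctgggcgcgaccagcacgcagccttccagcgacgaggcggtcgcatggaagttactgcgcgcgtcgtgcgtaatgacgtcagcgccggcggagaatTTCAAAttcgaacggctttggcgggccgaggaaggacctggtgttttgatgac
CENPE (chr4:103198294-103198593, minus strand): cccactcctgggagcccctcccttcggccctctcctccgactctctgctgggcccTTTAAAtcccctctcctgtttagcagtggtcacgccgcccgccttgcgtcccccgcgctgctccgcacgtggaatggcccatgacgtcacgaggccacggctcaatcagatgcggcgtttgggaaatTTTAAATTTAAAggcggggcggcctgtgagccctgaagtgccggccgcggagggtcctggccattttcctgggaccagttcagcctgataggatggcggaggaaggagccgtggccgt
CENPU (chr4:184734047-184734346, minus strand): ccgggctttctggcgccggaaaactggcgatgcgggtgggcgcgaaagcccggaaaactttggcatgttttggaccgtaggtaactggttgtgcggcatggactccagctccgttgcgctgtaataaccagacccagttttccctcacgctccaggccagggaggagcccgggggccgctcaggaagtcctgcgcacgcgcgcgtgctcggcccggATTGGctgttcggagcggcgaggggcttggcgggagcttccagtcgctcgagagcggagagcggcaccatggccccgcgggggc
DSN1 (chr20:36773714-36774013, minus strand): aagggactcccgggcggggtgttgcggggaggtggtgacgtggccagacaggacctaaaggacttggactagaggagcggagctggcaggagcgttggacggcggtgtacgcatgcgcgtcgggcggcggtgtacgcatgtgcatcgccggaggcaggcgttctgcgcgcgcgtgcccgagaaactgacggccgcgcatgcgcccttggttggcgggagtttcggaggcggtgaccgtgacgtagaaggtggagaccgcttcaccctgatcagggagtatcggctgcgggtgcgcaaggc
Counting the base before the start site as -1, the CENPA window holds TTTGAA at -18, TTTAAA at -57, CCAAT boxes on the other strand at -130 and -205 and TTTCCCGC at -232. In NDC80 the single match is TTTGAA on the other strand, at -3. HJURP holds TTTGAA at -111 and CCAAT boxes at 4 positions. CENPE holds TTTAAA at 3 positions and none of the other motifs, CENPU a single CCAAT box, and DSN1 none of them in this window. Of the 29 members with a RefSeq window, 13 (44.8%) hold TTTGAA, 3 (10.3%) TTTAAA, 17 (58.6%) CCAAT and 2 (6.9%) an E2F form. Over 27305 RefSeq promoters of the same length, the shares were 15.4%, 12.3%, 35.7% and 2.31%. No matches of different motifs overlapped in the members' windows. Of the 13 members that hold TTTGAA, 2 rose and 3 fell with 20 nM and 5 rose and 3 fell with 100 nM at 16 h. At 24 h, 3 rose and 5 fell with 20 nM and 1 rose and 5 fell with 100 nM. Of the 17 with CCAAT, 1 rose and 4 fell, 2 and 5, 4 and 5, and 0 and 6 in that order. Of the 3 with TTTAAA, 2 rose and 0 fell, 2 and 0, 0 and 3, and 0 and 2. The 2 with an E2F form gave 1 and 0, 1 and 0, 0 and 1, and 0 and 0. Of all tested genes, 6.78% rose and 11% fell, 9.16% and 14.7%, 14.7% and 14.1%, and 15.4% and 18.4%. Whether a motif goes with a direction was not tested. CENPH, CENPJ, CENPL, CENPM, KNL1 and KNTC1 had no window in the table.

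CENPA (chromosome 2, 26764289 to 26801067 on GRCh38), the histone H3 variant of centromeres, had 42.5 and 43.0 FPKM with 20 nM and 49.5 and 47.7 FPKM with 100 nM, against 33.2 and 35.2 FPKM in solvent at 16 h. Both doses lay above both solvent libraries, and 100 nM lay above 20 nM. CENPA rose with 20 nM (log2 change 0.32, SE 0.046, adjusted p = 0.0023) and with 100 nM (log2 change 0.49, SE 0.046, adjusted p = 0.000137) in limma with Benjamini-Hochberg adjustment. At 24 h the same gene had 30.0 and 29.8 FPKM with 20 nM and 34.2 and 34.4 FPKM with 100 nM, against 36.8 and 34.7 FPKM in solvent. Its level fell with 20 nM (log2 change -0.25, SE 0.046, adjusted p = 0.00448), below both solvent libraries, and did not pass with 100 nM (log2 change -0.060, SE 0.046, adjusted p = 0.348, 95% interval -0.16 to 0.044). The fall with 20 nM was -0.43 on the log2 scale with rescaling to a common sum.

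HJURP (chromosome 2, 233833416 to 233854566), the chaperone that loads CENPA, had 50.3 and 50.7 FPKM with 20 nM and 51.9 and 52.3 FPKM with 100 nM, against 44.4 and 46.3 FPKM in solvent at 16 h. All 4 treated libraries lay above both solvent libraries, though the change passed with 100 nM (log2 change 0.20, SE 0.048, adjusted p = 0.0188) and not with 20 nM (log2 change 0.15, SE 0.048, adjusted p = 0.059). At 24 h it had 40.1 and 42.8 FPKM with 20 nM and 42.7 and 41.0 FPKM with 100 nM, against 52.3 and 49.4 FPKM in solvent. All 4 treated libraries were then below both solvent libraries, with log2 changes of -0.29 with 20 nM (adjusted p = 0.00279) and -0.28 with 100 nM (adjusted p = 0.00267). CENPB, which binds a short motif of alpha-satellite DNA, had log2 changes of -0.12, -0.20, -0.17 and -0.061 at 20 nM and 100 nM at 16 h and then at 24 h, and none passed. When 1 library was left out, the call at 100 nM and 16 h ended for HJURP without library 3, 4 or 5 (adjusted p 0.0674 to 0.109). At least 1 of the 3 other scalings ended the call of HJURP at 100 nM and 16 h. HJURP changed by -0.47 on the log2 scale with 20 nM at 24 h under rescaling to a common sum.

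The constitutive centromere network, 13 genes whose proteins sit on CENPA chromatin, held the change of largest size among the 35 in the 4 comparisons with solvent. At 16 h, 0 of 13 rose and 5 fell with 20 nM, and 1 rose and 4 fell with 100 nM. At 24 h, 5 rose and 2 fell with 20 nM, and 3 rose and 2 fell with 100 nM. The shares called, 38.5%, 38.5%, 53.8% and 38.5% in turn, stood beside 17.7%, 23.8%, 28.8% and 33.8% of all tested genes, so the last lies near the background. Median log2 changes were -0.18, -0.18, 0.18 and 0.029 in turn. CENPC (chromosome 4, 67468748 to 67545606), the scaffold that binds CENPA nucleosomes and recruits the MIS12 complex, had 4.23 and 3.99 FPKM with 20 nM and 3.93 and 3.64 FPKM with 100 nM, against 9.01 and 8.67 FPKM in solvent at 16 h. Treated and solvent libraries were far apart. The gene fell with 20 nM (log2 change -0.95, SE 0.064, adjusted p = 4.7e-05) and with 100 nM (log2 change -1.04, SE 0.064, adjusted p = 1.39e-05). At 24 h CENPC had 9.29 and 9.62 FPKM with 20 nM and 6.02 and 6.49 FPKM with 100 nM, against 10.3 and 10.1 FPKM in solvent. The fall remained with 100 nM (log2 change -0.63, SE 0.064, adjusted p = 0.000212), while with 20 nM the change did not pass (log2 change -0.10, SE 0.064, adjusted p = 0.287).

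CENPI (chromosome X, 101098218 to 101163681), a subunit beside CENPH and CENPK that helps CENPA loading, had 9.41 and 9.39 FPKM with 20 nM and 10.8 and 9.78 FPKM with 100 nM, against 14.5 and 13.2 FPKM in solvent at 16 h. At 24 h it had 8.52 and 8.74 FPKM with 20 nM and 6.86 and 6.35 FPKM with 100 nM, against 14.0 and 14.1 FPKM in solvent. Treated libraries were below the solvent libraries of their time without overlap in each case, and the lowest values were those of 100 nM at 24 h. CENPI fell in all 4 comparisons, with log2 changes of -0.51 and -0.40 at 16 h and -0.64 and -0.98 at 24 h with 20 nM and 100 nM (limma, adjusted p = 0.00129, 0.00306, 0.000304 and 2e-05).

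CENPU (chromosome 4, 184694618 to 184734133), which docks polo-like kinase 1 at the inner kinetochore, had 20.0 and 19.5 FPKM with 20 nM and 17.0 and 17.1 FPKM with 100 nM, against 27.7 and 26.0 FPKM in solvent at 16 h. Every treated library lay below solvent, lowest with 100 nM. The mRNA fell with 20 nM (log2 change -0.42, SE 0.059, adjusted p = 0.00177) and 100 nM (log2 change -0.62, SE 0.059, adjusted p = 0.000144). At 24 h CENPU had 30.4 and 33.5 FPKM with 20 nM and 24.9 and 26.6 FPKM with 100 nM, against 27.7 and 28.4 FPKM in solvent. It then rose with 20 nM (log2 change 0.18, SE 0.059, adjusted p = 0.0462) and did not pass with 100 nM (-0.12). CENPQ, its partner in the same subcomplex, fell with 100 nM at 16 h (log2 change -0.39, SE 0.068, adjusted p = 0.00407). CENPO, which belongs to that subcomplex as well, rose with 100 nM at 16 h (0.25) and at 24 h (0.33). At 20 nM and 24 h, the call was lost for CENPU without library 1, 2, 3, 4, 5, 6, 8, 9, 10, 11 or 12 (adjusted p 0.0527 to 0.209, log2 change 0.11 without library 8). The call of CENPO at 100 nM and 16 h ended without library 1, 2, 3, 4, 5, 9, 10, 11 or 12 (log2 change 0.12 without library 5, log2 change 0.38 without library 6). Libraries outside the groups compared bear on the shared spread and not on the log2 change. Calls at 100 nM and 24 h did not hold for CENPO without library 9 or 12 (adjusted p 0.062 to 0.0747). Another scaling of the libraries ended the call of CENPU at 20 nM and 24 h, and CENPO at 100 nM and 16 h, and CENPO at 100 nM and 24 h. No filter on low values, a constant prior or fewer libraries in the fit also ended that of CENPU at 20 nM and 24 h, and CENPO at 100 nM and 16 h. With rescaling to a common sum CENPU had a log2 change of -0.00089 with 20 nM at 24 h, so its rise there depends on the scaling.

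Among the remaining network genes, 7 of 9 calls were made at 24 h. Over all tested genes, too, more were called at 24 h (28.8% and 33.8%) than at 16 h (17.7% and 23.8%). CENPH, next to CENPI in its subcomplex, rose with 20 nM (0.56) and 100 nM (0.46) at 24 h, with 17.8 and 14.6 FPKM with 20 nM and 13.2 and 16.9 FPKM with 100 nM, against 10.99 and 10.2 FPKM in solvent. CENPP, of the CENPO subcomplex, rose with 20 nM (0.61) and 100 nM (0.41) at 24 h, and its interval on chromosome 9 overlaps 10 annotated genes on the other strand. With 20 nM at 24 h CENPN (0.24), which reads the CENPA nucleosome, and the histone-fold protein CENPW (0.32) rose. CENPT (-0.40), the partner of CENPW that recruits NDC80 complexes, fell with 20 nM at 16 h. CENPM fell with 20 nM at 16 h (-0.26) and at 24 h (-0.24). CENPK and CENPL passed in no comparison, with log2 changes of -0.24 to 0.094 for CENPK and -0.10 to 0.090 for CENPL. For 20 nM and 24 h, the threshold was missed for CENPH without library 7, 11 or 12 (adjusted p 0.0635 to 0.108), CENPP without library 8 or 12 (adjusted p 0.0512 to 0.0648) and CENPN without library 8 or 11 (adjusted p 0.0542 to 0.0834). The same call ended for CENPW without library 7, 8 or 11 and for CENPM without library 3, 4, 5, 6, 7, 8, 11 or 12. Without 1 library, the call at 100 nM and 24 h was also lost for CENPH without library 1, 2, 3, 4, 10, 11 or 12 (adjusted p 0.0504 to 0.226, log2 change 0.29 without library 10) and CENPP without library 1, 2, 3, 4, 9, 10 or 12 (adjusted p 0.0528 to 0.233, log2 change 0.27 without library 12). When 1 library was left out, the call at 20 nM and 16 h ended for CENPT without library 1, 2, 5, 6, 11 or 12 (adjusted p 0.063 to 0.249) and CENPM without library 1, 3, 4, 5, 6, 11 or 12 (adjusted p 0.0641 to 0.262, log2 change -0.15 without library 1). At least 1 rescaling gave no call for CENPH, CENPN and CENPW at 20 nM and 24 h, and CENPH and CENPP at 100 nM and 24 h, and CENPT and CENPM at 20 nM and 16 h. Another filter, prior or choice of libraries ended the call of CENPH and CENPM at 20 nM and 24 h, and CENPH and CENPP at 100 nM and 24 h, and CENPT and CENPM at 20 nM and 16 h.

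In the NDC80 complex, the 4-subunit rod that binds microtubules, NDC80 and SPC25 moved in opposite directions at 16 h. NDC80 (chromosome 18, 2571511 to 2616635), the subunit with the microtubule-binding head, had 44.3 and 40.6 FPKM with 20 nM and 48.2 and 48.1 FPKM with 100 nM, against 37.2 and 36.9 FPKM in solvent at 16 h. It rose with 20 nM (log2 change 0.19, SE 0.054, adjusted p = 0.0424) and with 100 nM (log2 change 0.37, SE 0.054, adjusted p = 0.00167). NUF2, the subunit paired with NDC80, had 46.3 and 46.8 FPKM with 20 nM and 50.1 and 55.1 FPKM with 100 nM, against 42.9 and 38.6 FPKM in solvent at 16 h and rose with 100 nM (log2 change 0.36, SE 0.063, adjusted p = 0.00387), while 20 nM did not pass (0.19). SPC25 (chromosome 2, 168834132 to 168913371), at the end that faces the chromosome, had 22.9 and 24.1 FPKM with 20 nM and 24.8 and 25.2 FPKM with 100 nM, against 31.7 and 33.3 FPKM in solvent at 16 h. All 4 treated libraries lay below both solvent libraries. It fell with 20 nM (log2 change -0.45, SE 0.060, adjusted p = 0.00142) and with 100 nM (log2 change -0.37, SE 0.060, adjusted p = 0.00282), and SPC24, its partner and the least abundant subunit, did not pass at either dose (-0.23 and -0.23, with SE 0.18, the largest SE of the 35 genes).

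At 24 h NDC80 had 32.9 and 34.3 FPKM with 20 nM and 33.8 and 36.5 FPKM with 100 nM, against 37.4 and 38.7 FPKM in solvent. Its level fell with 20 nM (log2 change -0.17, SE 0.054, adjusted p = 0.0408) and did not pass with 100 nM (-0.11). NUF2 did not pass (-0.073 with 20 nM and -0.076 with 100 nM). SPC24 had 9.83 and 7.47 FPKM with 20 nM and 11.1 and 9.07 FPKM with 100 nM, against 13.1 and 11.4 FPKM in solvent at 24 h. Treated libraries of SPC24 were all below both solvent libraries, but neither change passed with this gene's wide SE (log2 change -0.47, SE 0.18, adjusted p = 0.0866 with 20 nM, and -0.26 with 100 nM), and with 20 nM it passed under rescaling to a common sum and without library 3 or 4. SPC25 had 22.6 and 20.2 FPKM with 20 nM and 18.9 and 18.3 FPKM with 100 nM, against 30.7 and 29.5 FPKM in solvent at 24 h. The mRNA fell with 20 nM (log2 change -0.47, SE 0.060, adjusted p = 0.000787) and with 100 nM (log2 change -0.67, SE 0.060, adjusted p = 0.000101), without overlap with solvent. At 20 nM and 16 h, the call was lost for NDC80 without library 1, 3, 4, 5, 6, 11 or 12 (adjusted p 0.0594 to 0.248). NDC80 also lost its call at 20 nM and 24 h without library 3, 4, 5, 6, 7, 8, 11 or 12. At least 1 of the 3 other scalings ended the call of NDC80 at 20 nM and 16 h. Changing the filter, the prior or the libraries fitted ended the call of NDC80 at 20 nM and 16 h, and NDC80 at 20 nM and 24 h. With rescaling to a common sum NDC80 changed by -0.36 on the log2 scale with 20 nM at 24 h.

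Ratios within a library do not depend on how libraries are scaled, and the pairs given were chosen after the values were seen. The ratio of NDC80 to SPC25 at 16 h was 1.93 and 1.69 with 20 nM and 1.94 and 1.91 with 100 nM, against 1.17 and 1.11 in solvent. At 24 h it was 1.45 and 1.70 with 20 nM and 1.79 and 2.00 with 100 nM, against 1.22 and 1.31 in solvent. All 8 treated libraries were above all 4 solvent libraries. The ratio of NDC80 to its partner NUF2 lay between 0.867 and 0.962 in all 12 libraries, with treated and solvent libraries overlapping. The ratio of CENPA to CENPC at 16 h was 10.1 and 10.8 with 20 nM and 12.6 and 13.1 with 100 nM, against 3.68 and 4.06 in solvent. At 24 h that ratio was 3.23 and 3.09 with 20 nM and 5.67 and 5.29 with 100 nM, against 3.56 and 3.45 in solvent, so 20 nM was below solvent and 100 nM above it. These ratios are given as a description and were not tested.

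**Figure D3:**
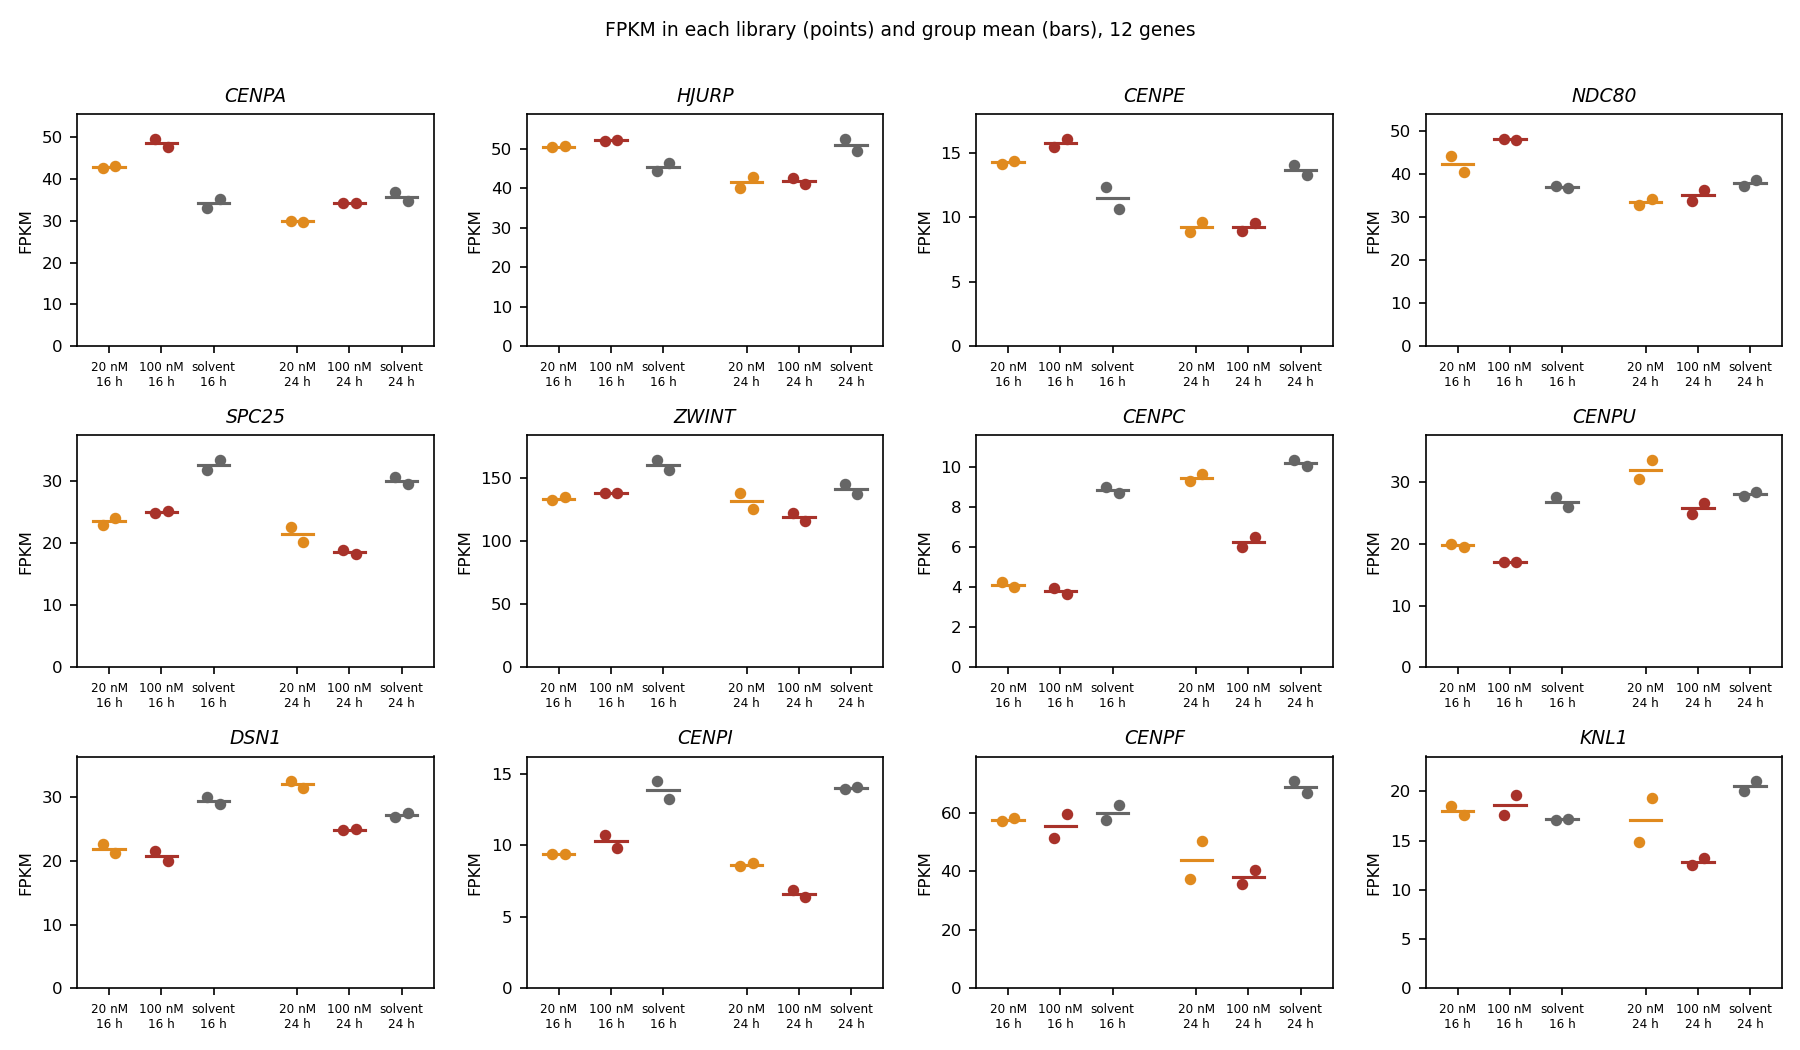
FPKM (y axis, from 0) in each library of the 12 genes given in full, by dose and time. Points are libraries and bars group means. CENPA, NDC80 and CENPE lie above solvent at 16 h, CENPC, CENPU and DSN1 below it, and SPC25 and CENPI lie below solvent at both times.

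The MIS12 complex bridges CENPC and the NDC80 complex. DSN1 (chromosome 20, 36751791 to 36773818), the subunit that Aurora B phosphorylates, had 22.7 and 21.2 FPKM with 20 nM and 21.6 and 19.9 FPKM with 100 nM, against 30.1 and 28.8 FPKM in solvent at 16 h. All 4 treated libraries were below both solvent libraries. It fell with 20 nM (log2 change -0.41, SE 0.054, adjusted p = 0.00138) and with 100 nM (log2 change -0.48, SE 0.054, adjusted p = 0.00037). At 24 h DSN1 had 32.5 and 31.5 FPKM with 20 nM and 24.8 and 25.0 FPKM with 100 nM, against 26.8 and 27.6 FPKM in solvent. It was above solvent with 20 nM (log2 change 0.23, SE 0.054, adjusted p = 0.0139) and did not pass with 100 nM (-0.12). The subunit NSL1 rose with 20 nM at 24 h (0.29), PMF1 fell at 24 h with 20 nM (-0.18) and 100 nM (-0.20), and MIS12 passed in no comparison (-0.055 to 0.26). PMF1 shares its interval with the readthrough gene PMF1-BGLAP, listed at 4.05 to 6.35 FPKM, so the division of reads between them is uncertain. Calls at 20 nM and 24 h did not hold for DSN1 without library 7 or 11 (adjusted p 0.0567 to 0.0811), NSL1 without library 8 or 11 (adjusted p 0.133 to 0.179, log2 change 0.15 without library 8) and PMF1 without library 8, 11 or 12 (adjusted p 0.071 to 0.14, log2 change -0.12 without library 8). For 100 nM and 24 h, the threshold was missed for PMF1 without library 9 or 12 (adjusted p 0.0889 to 0.0901). Another scaling of the libraries ended the call of DSN1 and NSL1 at 20 nM and 24 h. No filter on low values, a constant prior or fewer libraries in the fit also ended that of NSL1 and PMF1 at 20 nM and 24 h, and PMF1 at 100 nM and 24 h. DSN1 changed by 0.043 on the log2 scale with 20 nM at 24 h under rescaling to a common sum.

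In the KNL1 complex, KNL1 (chromosome 15, 40594020 to 40664342), the platform on which the BUB checkpoint proteins assemble, had 18.5 and 17.6 FPKM with 20 nM and 17.6 and 19.7 FPKM with 100 nM, against 17.1 and 17.2 FPKM in solvent at 16 h. The changes at 16 h did not pass (0.070 and 0.11). At 24 h it had 14.9 and 19.3 FPKM with 20 nM and 12.5 and 13.2 FPKM with 100 nM, against 20.0 and 21.0 FPKM in solvent. It fell with 100 nM (log2 change -0.63, SE 0.10, adjusted p = 0.00202), and with 20 nM the 2 libraries differed and the change did not pass (log2 change -0.26, SE 0.10, adjusted p = 0.089). ZWINT (chromosome 10, 56357228 to 56361275), which joins KNL1 and the RZZ complex, had 132 and 134 FPKM with 20 nM and 138 and 138 FPKM with 100 nM, against 164 and 156 FPKM in solvent at 16 h. It had 138 and 125 FPKM with 20 nM and 122 and 116 FPKM with 100 nM, against 145 and 137 FPKM in solvent at 24 h. All 4 treated libraries at 16 h and both libraries of 100 nM at 24 h were below solvent. ZWINT fell with 20 nM (-0.26) and 100 nM (-0.21) at 16 h and with 100 nM at 24 h (-0.24). Single libraries decided the call at 20 nM and 16 h for ZWINT without library 1, 2 or 5 (adjusted p 0.0575 to 0.0827). Without 1 library, the call at 100 nM and 16 h was also lost for ZWINT without library 3, 4 or 5 (adjusted p 0.0813 to 0.123). When 1 library was left out, the call at 100 nM and 24 h ended for ZWINT without library 10 or 11 (adjusted p 0.062 to 0.0625).

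The RZZ complex, which builds the fibrous corona and brings dynein to unattached kinetochores, had 3 calls over the 4 comparisons. Its shares called were 33.3%, 0%, 33.3% and 33.3% in turn, beside 17.7%, 23.8%, 28.8% and 33.8% of all tested genes. With 3 genes these counts do not set the complex apart from the background. KNTC1, its large subunit, fell with 20 nM at 16 h (-0.29) and with 100 nM at 24 h (-0.28). ZW10 rose with 20 nM at 24 h (0.18), and ZWILCH passed in no comparison (0.015 to 0.21). In the SKA complex, which holds NDC80 on moving microtubule ends, SKA1 rose with 20 nM at 24 h (0.28) with 32.6 and 35.3 FPKM with 20 nM and 27.7 and 26.6 FPKM with 100 nM, against 27.5 and 28.1 FPKM in solvent. SKA2 had log2 changes of -0.062, -0.060, 0.020 and -0.063 over the 4 comparisons, with 95% intervals that stayed between -0.17 and 0.12. SKA3 had -0.043 to 0.11, and its intervals stayed between -0.18 and 0.25. At 20 nM and 16 h, the call was lost for KNTC1 without library 1, 2, 5 or 6 (adjusted p 0.0861 to 0.129). The call at 100 nM and 24 h depended on single libraries for KNTC1 without library 9 or 12 (adjusted p 0.122 to 0.123). Calls at 20 nM and 24 h did not hold for ZW10 without library 1, 2, 3, 4, 5, 6, 8, 9, 10, 11 or 12 (adjusted p 0.0506 to 0.195, log2 change 0.12 without library 8) and SKA1 without library 8, 11 or 12 (adjusted p 0.0574 to 0.0829). At least 1 rescaling gave no call for ZW10 and SKA1 at 20 nM and 24 h. Another filter, prior or choice of libraries ended the call of KNTC1 at 20 nM and 16 h, and KNTC1 at 100 nM and 24 h, and ZW10 at 20 nM and 24 h. With rescaling to a common sum ZW10 had a log2 change of -0.00013 with 20 nM at 24 h.

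At the outer corona, CENPE (chromosome 4, 103105806 to 103198409), a kinesin that carries chromosomes to the spindle equator, had 14.1 and 14.4 FPKM with 20 nM and 15.5 and 16.0 FPKM with 100 nM, against 12.3 and 10.7 FPKM in solvent at 16 h. It rose with 20 nM (log2 change 0.29, SE 0.074, adjusted p = 0.0274) and with 100 nM (log2 change 0.43, SE 0.074, adjusted p = 0.00382). At 24 h CENPE had 8.87 and 9.59 FPKM with 20 nM and 8.95 and 9.58 FPKM with 100 nM, against 14.1 and 13.3 FPKM in solvent. All 4 treated libraries were then below solvent, and it fell, with log2 changes of -0.52 with 20 nM (adjusted p = 0.00138) and -0.52 with 100 nM (adjusted p = 0.00108). CENPF (chromosome 1, 214603195 to 214664588), a large coiled-coil protein that binds dynein regulators, had 57.0 and 58.2 FPKM with 20 nM and 51.3 and 59.6 FPKM with 100 nM, against 57.6 and 62.5 FPKM in solvent at 16 h and did not pass (-0.058 and -0.12). At 24 h CENPF had 37.3 and 50.4 FPKM with 20 nM and 35.6 and 40.5 FPKM with 100 nM, against 70.8 and 66.9 FPKM in solvent. Its level fell with 20 nM (log2 change -0.65, SE 0.13, adjusted p = 0.00615) and with 100 nM (log2 change -0.84, SE 0.13, adjusted p = 0.00148). CENPJ carries the CENP name but encodes a centriole protein, and it fell with 100 nM at 24 h (log2 change -0.27, SE 0.080, adjusted p = 0.029). For 20 nM and 16 h, the threshold was missed for CENPE without library 1, 2 or 6 (adjusted p 0.101 to 0.149). Single libraries decided the call at 100 nM and 24 h for CENPJ without library 9, 10, 11 or 12 (adjusted p 0.0748 to 0.13). Changing the filter, the prior or the libraries fitted ended the call of CENPE at 20 nM and 16 h, and CENPJ at 100 nM and 24 h.

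The design also sets the effect of each dose at 24 h against its effect at 16 h. With 20 nM, 7 of 35 genes had a higher effect at 24 h and 4 a lower one. Of all tested genes, 11.5% were called, 7.06% higher and 4.46% lower. With 100 nM, 4 had a higher and 8 a lower effect at 24 h. The background over all tested genes was 10.2% called, 5.87% higher and 4.29% lower. The effect was lower at 24 h for CENPE, with a log2 difference of -0.81 with 20 nM (SE 0.10, adjusted p = 0.00271) and -0.94 with 100 nM (SE 0.10, adjusted p = 0.00144). It was also lower at both doses for CENPA (-0.57 and -0.55), HJURP (-0.44 and -0.47) and NDC80 (-0.36 and -0.48). The effect was higher at 24 h, that is nearer to or above solvent, for CENPC (0.85 and 0.41), CENPU (0.60 and 0.50), DSN1 (0.64 and 0.36) and CENPQ (0.37 and 0.43) with 20 nM and 100 nM. With 100 nM alone, CENPI (-0.58), KNL1 (-0.74), CENPF (-0.73) and NUF2 (-0.44) passed as lower at 24 h. With 20 nM alone, SKA1 (0.46), ZW10 (0.31) and CENPN (0.29) passed as higher at 24 h. Whether the 2 doses differed in this was not tested. Without 1 library, the call at 20 nM between times was also lost for NDC80 without library 1, 5, 6 or 12 (adjusted p 0.0548 to 0.0689), CENPQ without library 1, 2, 3, 4, 5, 6, 8, 9, 10, 11 or 12 (adjusted p 0.0505 to 0.11) and SKA1 without library 1, 2, 6, 11 or 12 (adjusted p 0.0516 to 0.0686). When 1 library was left out, the call at 20 nM between times ended for ZW10 without library 1, 2, 3, 4, 5, 6, 8, 9, 10, 11 or 12 (adjusted p 0.051 to 0.125) and CENPN without library 1, 2, 3, 4, 5, 8, 9, 10, 11 or 12 (adjusted p 0.0503 to 0.142). At 100 nM between times, the call was lost for CENPC without library 4, 5, 6, 10, 11 or 12 (adjusted p 0.0556 to 0.0815), DSN1 without library 4, 5, 9, 10, 11 or 12 (adjusted p 0.0553 to 0.0711) and CENPQ without library 4, 6, 9, 10, 11 or 12 (adjusted p 0.074 to 0.0848). KNL1 lost its call at 100 nM between times without library 4, 5, 6, 9 or 12, and NUF2 without library 4, 6, 9 or 12. CENPF lost it without library 1, 2, 4, 5, 6, 9, 10, 11 or 12. At least 1 of the 3 other scalings ended the call of CENPQ, SKA1, ZW10 and CENPN at 20 nM between times, and CENPQ at 100 nM between times. No filter on low values, a constant prior or fewer libraries in the fit also ended that of CENPQ, ZW10 and CENPN at 20 nM between times, and CENPQ and CENPF at 100 nM between times. Under rescaling to a common sum the split was 3 higher and 7 lower with 20 nM and 3 and 9 with 100 nM. All tested genes gave 347 higher and 2117 lower with 20 nM and 546 and 903 with 100 nM under it. With 20 nM the split was 4 and 4 under median-of-ratios scaling, and 4 and 5 under rescaling over nuclear genes. All tested genes then gave 775 and 748, and 625 and 934.

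**Figure D4:**
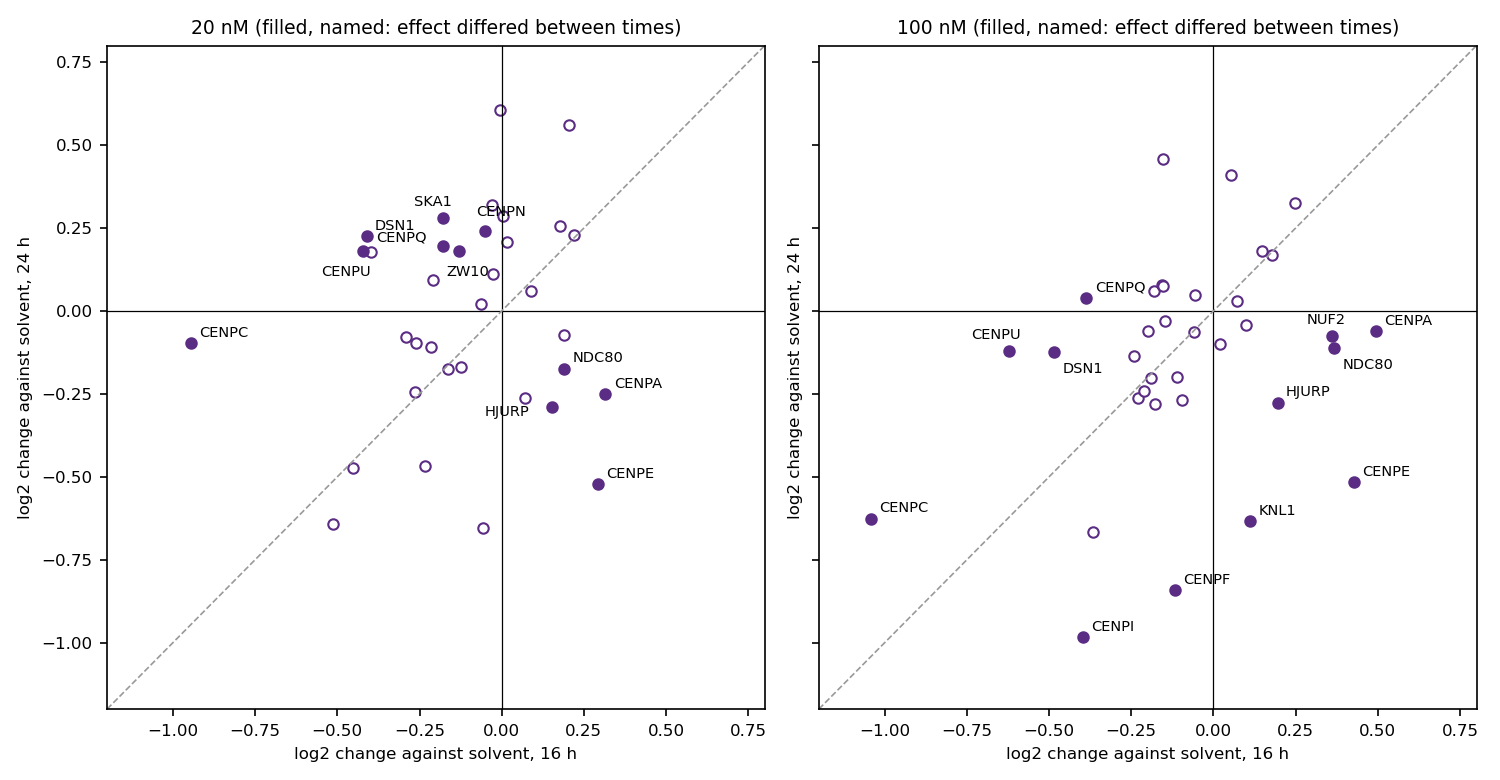
Log2 change against solvent at 24 h (y axis) over that at 16 h (x axis) for the 35 genes at each dose, with a dashed line where both are equal. Filled, named points are genes whose effect differed between times. CENPA, HJURP, NDC80 and CENPE lie to the lower right of the line and CENPC, CENPU and DSN1 to its upper left at both doses.

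Between doses, 100 nM set against 20 nM at 16 h gave 0 of 35 called in limma, and 7 at an unadjusted p under 0.05, 4 higher and 3 lower with 100 nM. Of all tested genes, 0.32% were called, 0.0446% higher and 0.275% lower. None of the 21 alternatives gave a call of a member there. Point changes ran from -0.36 to 0.22 on the log2 scale, and intervals reached from -0.69 to 0.49. At 24 h, 0 were higher and 5 lower with 100 nM than with 20 nM. The background over all tested genes was 4.88% called, 1.82% higher and 3.06% lower. The members were CENPC (log2 change -0.53, SE 0.064, adjusted p = 0.00581), DSN1 (-0.35), CENPI (-0.34), SKA1 (-0.31) and CENPU (-0.30). Calls at 24 h between doses did not hold for CENPC without library 9 (adjusted p 0.0635), DSN1 without library 8, 9 or 10 (adjusted p 0.0517 to 0.0945) and CENPI without library 1, 2, 8, 9 or 10 (adjusted p 0.0508 to 0.138). For 24 h between doses, the threshold was missed for SKA1 without library 1, 2, 5, 6, 8, 9, 10, 11 or 12 (adjusted p 0.0555 to 0.177) and CENPU without library 1, 2, 8, 9 or 10 (adjusted p 0.0503 to 0.17). Another scaling of the libraries ended the call of CENPI, SKA1 and CENPU at 24 h between doses. Another filter, prior or choice of libraries ended the call of CENPC, DSN1, CENPI, SKA1 and CENPU at 24 h between doses. Rescaling to a common sum gave 1 higher and 2 lower, and median-of-ratios scaling 1 higher and 4 lower. All tested genes gave 245 higher and 412 lower in the deposited FPKM, and 796 and 166 with a common sum. Higher calls over all tested genes also outnumbered lower ones under median-of-ratios scaling. The balance of calls thus moved upward over the whole table as well, and not in the members alone.

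Solvent libraries at 24 h set against those at 16 h gave 0 of 35 called in limma, and 7 at an unadjusted p under 0.05, 4 higher and 3 lower at 24 h. Of all tested genes, 5.62% were called, 3.14% higher and 2.47% lower. The members' median log2 change was -0.013, with a range of -0.42 (CENPT) to 0.25 (KNL1). Libraries of the 2 times did not overlap for 22 of the 35 genes, though none was called. Non-overlap was not counted over all tested genes. Here and for single genes above it is a description only. Other settings gave 0 to 3 calls. Time in culture and anything else that differed between the time points cannot be told apart in this comparison.

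Partner genes outside the 35 were counted as lists. Of 17 that serve checkpoint signalling and attachment at the kinetochore, 8 rose and 5 fell with 20 nM and 9 rose and 4 fell with 100 nM at 16 h. At 24 h, 0 rose and 10 fell with 20 nM, and 1 rose and 11 fell with 100 nM. The shares called were 76.5%, 76.5%, 58.8% and 70.6% in turn, beside the 17.7%, 23.8%, 28.8% and 33.8% of all tested genes. Their median log2 changes were 0.15, 0.28, -0.22 and -0.30 in turn. Over the 3 other scalings, 8 to 10 rose and 3 to 5 fell at 16 h, and 0 or 1 rose and 10 to 16 fell at 24 h. Calls of MAD2L1 and TTK with 100 nM at 16 h depended on single libraries. So did those of KNSTRN with 20 nM and MAD1L1 with 100 nM at 24 h, among others. SGO2, a protector of centromeric cohesion, rose at 16 h (0.44 with 20 nM and 0.61 with 100 nM) and fell at 24 h (-0.31 and -0.33). The checkpoint kinase relative BUB1B did the same (0.38 and 0.38 at 16 h, -0.55 and -0.35 at 24 h), and in solvent alone it was higher at 24 h than at 16 h (0.44). The solvent call ended without library 5, 6 or 11 (adjusted p 0.0586 to 0.0918) and with the solvent groups fitted alone. AURKB and INCENP, kinase and scaffold of the chromosomal passenger complex, fell in all 4 comparisons, with log2 changes of -0.96 for AURKB and -0.96 for INCENP with 100 nM at 24 h. For these 17 the effect was lower at 24 h in 9 and higher in 0 with 20 nM, and lower in 13 and higher in 1 with 100 nM. Over all tested genes it was lower in 4.46% and higher in 7.06% with 20 nM, and in 4.29% and 5.87% with 100 nM. Of 7 partners in centromere chromatin, 0 rose and 1 fell with 20 nM and 0 were called with 100 nM at 16 h, while 1 rose with 20 nM and 2 rose with 100 nM at 24 h. Their shares called were 14.3%, 0%, 14.3% and 28.6%, beside 17.7%, 23.8%, 28.8% and 33.8% of all tested genes. In a list of 7 a single gene makes 14.3%, so no difference from the background is drawn from these shares. With rescaling to a common sum, 1 rose and 3 fell at each dose at 24 h, and over nuclear genes 2 rose and 2 fell with 100 nM. CENPS, a histone-fold partner of CENPT, rose at 24 h with 20 nM (0.39) and 100 nM (0.27), and the readthrough gene CENPS-CORT was listed at 8.21 to 16.2 FPKM, so values of CENPS are uncertain. Single libraries decided the call at 100 nM and 24 h for CENPS without library 9, 10 or 12 (adjusted p 0.06 to 0.0977). At least 1 rescaling gave no call for CENPS at 100 nM and 24 h. Differences between these lists and the 35 genes were not tested.

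Of the 35 genes, 20 overlap another annotated gene on GRCh38 (GENCODE 29), 18 of them a gene on the other strand and 6 a gene on the same strand. The library kit keeps strand. Whether the counting used it is not given in the sources used here, and values of overlapping genes are uncertain to that extent. CENPT overlaps THAP11 and NUTF2, and ZWILCH overlaps RPL4, on the other strand. On the same strand, where strand cannot separate reads, CENPA overlaps SLC35F6 and KNL1 overlaps AC022405.1. The CENPA interval starts at 26764289, upstream of the promoter window shown for it (26785806 to 26786105). Pseudogenes named after CENPC, CENPI, CENPU and SKA2 were listed at 0 to 0.02 FPKM in all libraries.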

How the data were processed

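Per the labels' protocols, HCT116 cells were treated in 6-well plates in duplicate, RNA was poly(A)-selected, and 12 directional libraries were pooled and sequenced in paired reads. The authors deposited 1 table of FPKM per gene and library, rounded to 2 decimals, for 58174 genes. The submitters' processing notes list RSEM 1.2.28 and GRCh38. Which aligner and annotation release served is not given in the sources used here. The table holds no counts, so depth is unknown and precision rests on the scatter between libraries. RSEM divides reads among similar genes, which makes overlapping genes and copies uncertain. GENCODE 29 gave symbols for 57836 genes by identifier.

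Genes with at least 1 FPKM in at least 2 of 12 libraries were tested (13458). Log2(FPKM + 1), which understates changes of low genes, was fitted with 6 group means in limma 3.58.1 (R 4.3.3) with a mean-dependent prior, giving 6 residual and 2.98 prior degrees of freedom. All 9 contrasts were two-sided, with Benjamini-Hochberg adjustment over all tested genes. The script was tested on simulated data. Columns name a group and a library number, not the labels' sample number, so libraries entered unpaired.

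The members and lists were chosen with earlier results of these data known. Every library value was given for the members called in at least 3 of the 4 comparisons with solvent, at most 12 by size of change, and for up to 8 members whose effect differed between times. Partner genes named are examples chosen after their values were seen, and so are the 6 promoters and the ratios. Promoter windows are from RefSeq on GRCh38.p14, and 29 of 35 members matched by symbol. Alternatives numbered 21: pseudocounts of 0.1 and 0.5, no filter, a minimum of 5 FPKM, a common sum, median-of-ratios scaling, a constant prior, fewer libraries in the fit, 12 fits without 1 library, and a common sum over nuclear genes, added after the data were seen.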

Additional observations from a re-analysis of the deposited data

Results flagged for a closer look

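The effect of dolastatin 15 against solvent differed between 24 h and 16 h for 11 genes with 20 nM and for 12 with 100 nM, by limma's test of the difference itself at a Benjamini-Hochberg adjusted p under 0.05. Over all tested genes, 11.5% were called with 20 nM and 10.2% with 100 nM. Values are the log2 change at 24 h minus that at 16 h.

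With 20 nM, the effect at 24 h was higher for CENPC (0.85), DSN1 (0.64), CENPU (0.60), SKA1 (0.46), CENPQ (0.37), ZW10 (0.31) and CENPN (0.29), and lower for CENPE (-0.81), CENPA (-0.57), HJURP (-0.44) and NDC80 (-0.36). With 100 nM, it was higher for CENPU (0.50), CENPQ (0.43), CENPC (0.41) and DSN1 (0.36), and lower for CENPE (-0.94), KNL1 (-0.74), CENPF (-0.73), CENPI (-0.58), CENPA (-0.55), NDC80 (-0.48), HJURP (-0.47) and NUF2 (-0.44). CENPA, HJURP, NDC80 and CENPE were lower and CENPC, CENPU, DSN1 and CENPQ higher at both doses, which share the solvent libraries of each time. With 20 nM, 6 of the 11 calls and with 100 nM 6 of the 12 held under all 21 alternatives. Groups of 2 libraries are too small for a test of single libraries that stand apart.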

How the results depend on the processing

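Calls that held under all 21 alternatives numbered 6 of 12 at 20 nM and 16 h, 10 of 13 at 100 nM and 16 h, 6 of 18 at 20 nM and 24 h and 7 of 14 at 100 nM and 24 h. Rescaling to a common sum turned 2 changes with 20 nM at 24 h, CENPU to -0.00089 and ZW10 to -0.00013 (log2), from 0.18 each in the deposited scale. With no filter on low values the members called at 20 nM and 16 h were 7 in place of 12, and those between doses at 24 h were 2 in place of 5. The 28271 genes tested without a filter gave 664 higher and 1058 lower, and 125 and 209. The 13458 genes of the main fit gave 912 and 1476, and 245 and 412. Between doses at 24 h, a common sum gave 3 and the 24 h libraries alone 0. All tested genes then gave 796 higher and 166 lower, and 4 and 5. In solvent at 24 h against 16 h, a common sum gave 2, median-of-ratios scaling 1 and nuclear genes 1, in place of 0. All tested genes gave 976 higher and 212 lower, 358 and 572, and 376 and 576, in place of 423 and 333. The cause was not tested. Leaving out each library in turn gave 7 to 14 calls at 20 nM and 16 h, 10 to 14 at 100 nM and 16 h, 7 to 17 at 20 nM and 24 h, 8 to 14 at 100 nM and 24 h, 0 between doses at 16 h, 0 to 9 at 24 h, 0 to 3 in solvent over time, 6 to 12 for the difference in effect with 20 nM and 6 to 13 with 100 nM. The number of calls over all tested genes moved with the library left out as well, so such swings are not particular to the members. Without a library its group has 1 sample, which is assumed to vary like the others. Leaving out a library of a group not compared alters the shared spread and the adjustment, and not the log2 change. Of 315 gene comparisons, pseudocounts changed 0 calls, while a common sum ended 20, added 25 and turned 2, no filter ended 23, and fewer libraries in the fit ended 23 and added 5. Of 189 medians, 12 moved by more than 0.050. No paired analysis was possible because the columns carry no sample number of the labels. Depth is unknown, so no limit from counting can be given.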
